A study of Mus musculus with 4 samples.

Results

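Hyaluronan synthesis, versican and CD44 were followed through 8 listed genes: the hyaluronan synthase genes Has1, Has2 and Has3, the versican gene Vcan, Tnfaip6, the receptor gene Cd44 and the hyaluronidase genes Hyal1 and Hyal2. They were taken by gene symbol from the 18193 genes that the arrays read through probe sets with a single symbol, and 7 of the 8 were read in that way. Hyal1 shares its probe sets with a neighbouring gene and has no level of its own. The list was chosen by function with the levels and array differences of its genes already known, so all values below are a description. The cells were SVEC4-10, an endothelial line derived from mouse lymph node vessels and immortalised with SV40, and 4 arrays made up 4 groups. They held untreated cells, cells carrying the pLENTI6/Block-iT lentiviral backbone without an insert, and cells carrying that backbone with a short hairpin RNA directed at either Mical2 or Mical3. Transduced cells were kept under blasticidin. Each array carried RNA pooled from 3 biological replicates, so replicate spread is hidden, nothing can be tested and p-values are not given. Levels are log2 expression values. A gene is called higher or lower where the arrays differ by at least 2-fold, which is 1 on the log2 scale, and the higher level reaches a floor of 5.41, which is the median over the 4 columns. Hairpin arrays had to pass against the vector array and against untreated cells in the same direction.

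Hyaluronan is a long, unsulfated sugar chain that is spun out through the plasma membrane by the synthases from 2 nucleotide sugars, and it forms much of the pericellular coat of fibroblasts and the surface layer of endothelium. Versican is a large proteoglycan whose amino-terminal domain grips hyaluronan and whose core carries chondroitin sulfate chains, and the pair make up a loose, water-rich matrix around migrating cells and growing vessels. TSG-6, the product of Tnfaip6, moves heavy chains of inter-alpha-inhibitor onto hyaluronan, CD44 is the main cell surface receptor for it, and hyaluronidases cut it.

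The transcripts aimed at did not bear out the labels of the hairpin arrays. The Mical2 level was 5.53 by each of its 2 probe sets on the Mical2-labelled array, and it was lowest on the vector array, at 4.64 and 5.14. It was 5.33 and 5.60 in untreated cells, with its highest readings on the Mical3-labelled array, at 6.0 and 6.08. All these Mical2 levels lay near the floor of 5.41, and both vector readings below it. Their order is therefore weak, and a lowered Mical2 level could hardly be read. Mical3 was at 7.24 on the Mical3-labelled array, against 7.29 on the vector and 7.39 in untreated cells. Its lowest level, 6.83, was on the Mical2-labelled array. The hairpin arrays are therefore called by their labels throughout, and every direction is a difference between labelled arrays. Whether the vector and Mical2 labels were exchanged was not tested, and each difference drawn from either array rests on those labels. The cells also carried few endothelial transcripts. Of 13 endothelial markers, 9 were below the floor on all 4 arrays, Pecam1 and Cdh5 among them, and 3 or 4 reached it on any array. The hyaluronan receptor gene Lyve1, a defining marker of lymphatic endothelium, lay between 4.47 and 4.62, and Prox1 between 3.24 and 3.69. Of the 5 lymphatic markers measured, Reln was also below the floor, while Pdpn lay between 11.67 and 12.50. Flt4 was at 9.18 in untreated cells, 8.90 on the vector array, 7.66 on the Mical2-labelled array and 7.55 on the Mical3-labelled array.

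The hairpin stems are shown because they are the designed difference between the hairpin arrays. Each has 23 bases, and its sense strand reads as follows, 5′ to 3′.
Mical2 hairpin: aacatggcaggagcaggaagcac
Mical3 hairpin: aagtggaggagattagtggcgtg

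RefSeq promoters of build GRCm38.p6 were matched by symbol for 6 of the 8 genes, not for Has2 and Has3. The 250 bases before the gene start are given for Vcan, Cd44 and Tnfaip6, the matrix protein, receptor and hyaluronan modifier whose levels took 3 different orders over the arrays. Capitals mark every match to 9 motifs searched on both strands: AP-1 (TGANTCA), CRE (TGACGTCA), TCF/LEF (CTTTGAT), TEAD (GGAATG), the GC box (GGGCGG), the CCAAT box (CCAAT), the TATA box (TATAAA), the CArG box and the NF-kB site.
Vcan, chr13:89742513-89742762, minus strand: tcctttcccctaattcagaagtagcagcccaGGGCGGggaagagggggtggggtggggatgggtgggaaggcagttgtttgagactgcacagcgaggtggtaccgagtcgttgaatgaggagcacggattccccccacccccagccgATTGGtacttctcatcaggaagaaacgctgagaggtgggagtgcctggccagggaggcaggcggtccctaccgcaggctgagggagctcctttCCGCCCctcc
Cd44, chr2:102901666-102901915, minus strand: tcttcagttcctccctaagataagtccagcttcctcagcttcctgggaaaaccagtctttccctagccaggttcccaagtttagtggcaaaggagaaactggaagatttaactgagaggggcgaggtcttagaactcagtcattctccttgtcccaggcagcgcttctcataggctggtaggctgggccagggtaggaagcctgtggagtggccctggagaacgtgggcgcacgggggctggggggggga
Tnfaip6, chr2:52037863-52038112, plus strand: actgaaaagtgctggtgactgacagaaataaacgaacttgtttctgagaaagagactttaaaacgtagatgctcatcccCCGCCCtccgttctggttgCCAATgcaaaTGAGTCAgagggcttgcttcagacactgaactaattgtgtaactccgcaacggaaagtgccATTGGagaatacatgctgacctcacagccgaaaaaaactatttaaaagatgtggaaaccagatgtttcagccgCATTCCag
The Vcan window holds a GC box starting 219 and another starting 10 bases before the gene start, and a CCAAT box at 103. The Tnfaip6 window holds an AP-1 match at 142, a TEAD match at 8, a GC box at 171 and CCAAT boxes at 152 and 81 bases before the start. The Cd44 window has none of the 9 motifs. No marked matches overlap. Over all 32851 promoters of the table, 32.7% hold a GC box, 33.8% a CCAAT box, 6.75% an AP-1 match, 12.6% a TEAD match, 1.55% a CRE, 3.21% a TCF/LEF match, 12.4% a TATA box, 1.47% a CArG box and 7.25% an NF-kB site. A match describes these letters and shows no binding.

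Among the synthase genes, Has2 was the one that separated the arrays. Has2 makes long hyaluronan chains and is the synthase needed for heart and vessel development. Its level was 9.02 on the Mical2-labelled array, 7.91 in untreated cells, 6.57 on the vector array and 5.81 on the Mical3-labelled array. The Mical2-labelled array thus stood above both controls, by 2.45 on the log2 scale (5.46-fold) from the vector and by 1.11 (2.16-fold) from untreated cells, and Has2 was called higher there. The second Has2 probe set kept the order of the arrays, with levels of 8.26, 7.69, 5.65 and 5.28. Its difference of 0.57 from untreated cells fell short of 2-fold, so the call rests on the probe set with the higher mean. The Mical3-labelled array was the lowest of the 4 by both probe sets. Its Has2 level differed from untreated cells by -2.10 and from the vector array by only -0.76, which left it uncalled against both. Between the hairpin arrays the Has2 level differed by 3.21 (9.25-fold).

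The other synthases varied by less than 2-fold. Has1, which needs more of its sugar substrates than the other isoforms, lay near the floor at 6.41 on the Mical2-labelled array, 6.25 on the Mical3-labelled array, 6.07 in untreated cells and 5.93 on the vector array. Has3, which makes shorter chains, was below the floor throughout, from 4.00 to 4.33. Levels of different probe sets cannot be set against each other, so the arrays do not rank the 3 synthases.

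Vcan took the same order as Has2. The level of its brightest probe set was 10.23 on the Mical2-labelled array, 8.86 in untreated cells, 7.71 on the vector array and 6.79 on the Mical3-labelled array. The Mical2-labelled array was above both controls, by 2.52 (5.74-fold) from the vector array and 1.37 (2.58-fold) from untreated cells. A second probe set read 8.62, 7.41, 5.70 and 5.83 in that order of arrays and another 8.09, 6.52, 5.95 and 5.65. Both of these also passed 2-fold against each control on the Mical2-labelled array, so all 3 probe sets above the floor carried the call. The 3 sets disagreed on the lowest array, since 1 of them read the vector array 0.13 below the Mical3-labelled array. The other 5 of the 8 Vcan probe sets stayed below the floor, between 3.05 and 4.09. On the Mical3-labelled array the Vcan level differed by -2.07 from the untreated and by -0.92 from the vector array, which missed the call. The step from hairpin to hairpin was the widest of any member, 3.44 (10.9-fold).

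**Figure D1:**
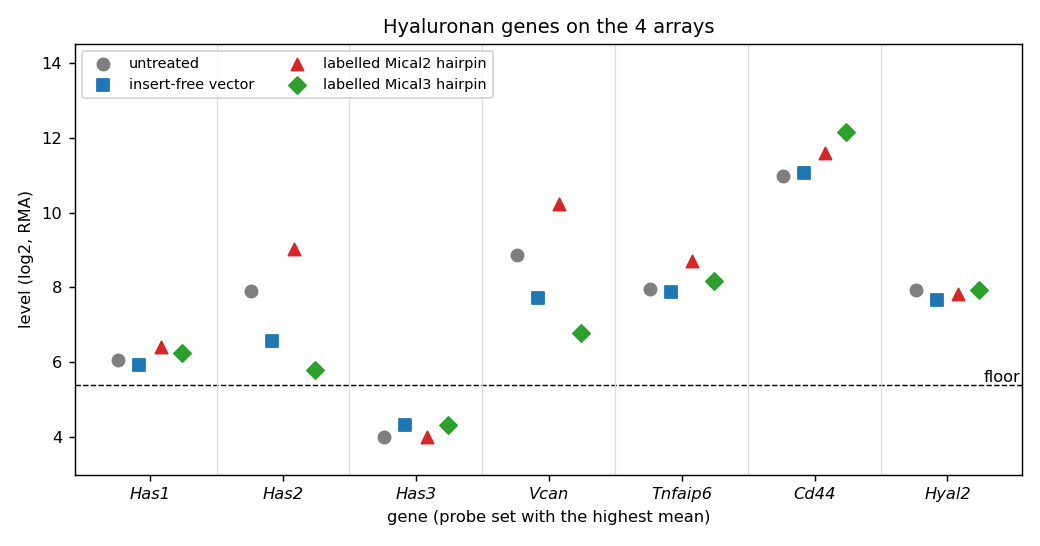
Levels of the 7 measured genes (log2, y axis) by each gene's brightest probe set, with 1 point per array and the dashed line at the floor of 5.41. Has2 and Vcan spread widely with the Mical2-labelled array on top and the Mical3-labelled array at the bottom, Cd44 is highest on the Mical3-labelled array, and Has3 lies below the floor.

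The vector array separated Has2 and Vcan from untreated cells as well. Has2 was lower there by 1.34 (2.53-fold) and Vcan by 1.15 (2.22-fold), and both were called lower. The second Has2 probe set shared the call, at -2.04. Of the other Vcan sets above the floor, 1 shared it at -1.71 and 1 did not, at -0.57. By its labels this pair of arrays holds no hairpin, with the doubt about the vector label given above. The size of the Mical2 differences therefore depends on the control, and it was smaller against untreated cells for both genes. No error can be given for any of these differences. How far probe sets of a gene disagree was taken from 5198 genes read by 2 probe sets. The SD of the gap between the differences of the 2 sets was divided by the square root of 2, to give the scatter of 1 set. It was 0.33 for the Mical2-labelled array against the vector array, 0.24 against untreated cells and 0.26 for the vector against untreated cells. By the brightest sets, the differences of Has2 and Vcan in these pairs are several times that scatter. The scatter describes disagreement between probe sets and does not include the spread between cultures. It is neither an error of these differences nor a bound on it. The Vcan set at -0.57 came nearer to that scatter. So did the second Has2 set, at 0.57 from untreated cells on the Mical2-labelled array.

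**Figure D2:**
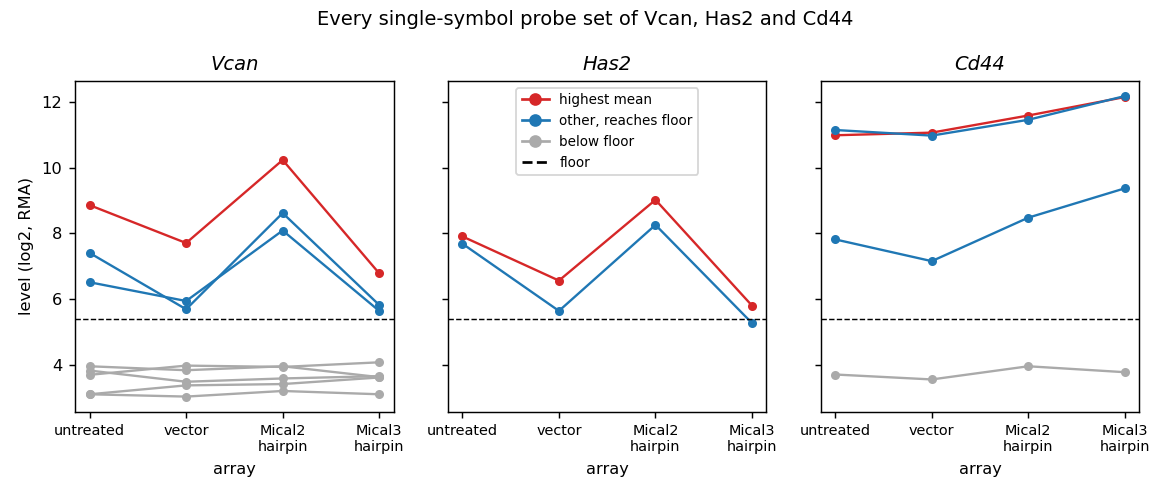
Levels (log2, y axis) of every single-symbol probe set of Vcan, Has2 and Cd44 on the 4 arrays (x axis), each line being 1 probe set. The 3 Vcan and 2 Has2 sets above the floor peak on the Mical2-labelled array, and the 3 Cd44 sets above the floor peak on the Mical3-labelled array.

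Vcan and Has2 had the most alike levels of any pair that includes either. Each gene's 4 levels were centred on their own mean and compared by root mean square distance with the other 12165 genes that reached the floor on some array. Has2 came first for Vcan and Vcan came first for Has2, at a distance of 0.11 on the log2 scale. Next for Vcan were Pcolce2, which encodes an enhancer of procollagen C-proteinase, at 0.23, and Tcim at 0.26. Next for Has2 were Cd24a, a small mucin-like surface protein, at 0.23 and Pcolce2 at 0.28. The Pcolce2 level was 11.86 on the Mical2-labelled array, 10.15 on the untreated, 9.47 on the vector and 8.69 on the Mical3-labelled array. Such likeness rests on 4 points, and the arrays share their labelling and scaling. Of the other members, Tnfaip6 ranked 807th and Cd44 10543rd by distance from Vcan.

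**Figure D3:**
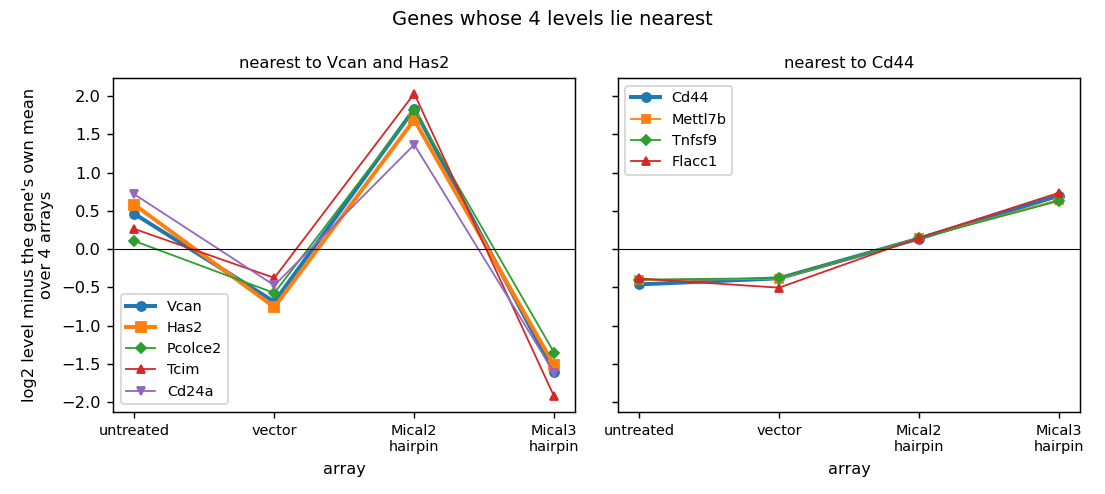
Log2 level minus the gene's own mean over the 4 arrays (y axis) for Vcan and Has2 with their nearest genes (left) and for Cd44 with its nearest genes (right). Vcan and Has2 overlie each other with a distance of 0.11, while Cd44 runs upward from the controls to the Mical3-labelled array.

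Tnfaip6, an inflammation-induced gene, was highest on the Mical2-labelled array, at 8.72. It stood at 8.18 on the Mical3-labelled array, 7.96 in untreated cells and 7.87 on the vector array. The differences of 0.85 and 0.76 from the controls were below 2-fold, and the controls differed from each other by 0.09. Hyal2, which encodes a membrane-anchored hyaluronidase, had the flattest level of the members above the floor, with 7.94 in untreated cells, 7.93 on the Mical3-labelled array, 7.83 on the Mical2-labelled array and 7.66 on the vector array. For Hyal1, a lysosomal hyaluronidase, no level is given. The 2 probe sets annotated to both Naa80 and Hyal1 read from 6.64 to 6.94 and from 5.53 to 5.97, and neither differed by 2-fold between any arrays.

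Cd44 went another way. Its level was 12.14 on the Mical3-labelled array, 11.58 on the Mical2-labelled array, 11.06 on the vector array and 10.98 in untreated cells. The Mical3-labelled array was above both controls by 1.08 (2.11-fold) and 1.16 (2.23-fold), a call close to the threshold, and the controls themselves differed by 0.08. A second bright probe set gave 12.17, 11.45, 10.97 and 11.14 in that order of arrays. The dimmer set gave a wider range of 9.37, 8.48, 7.16 and 7.82, with differences of 2.21 from the vector and 1.55 from untreated cells on the Mical3-labelled array. All 3 probe sets above the floor passed 2-fold against both controls there and had the Mical2-labelled array in second place. The fourth stayed below the floor, at 3.57 to 3.97. On the Mical2-labelled array the brightest set differed from the controls by 0.52 and 0.60 and was not called, while the dimmer set differed by 1.32 and 0.66. The nearest genes by the 4 levels were Mettl7b at a distance of 0.04, Tnfsf9, a ligand of the tumour necrosis factor family, at 0.05, and Flacc1 at 0.07. Flacc1 reached the floor on the Mical3-labelled array alone, at 5.93. Mettl7b lay near the floor on the controls, at 5.59 in untreated cells and 5.61 on the vector array, so both likenesses are weak.

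In counts, 2 of the 7 measured genes were called higher on the Mical2-labelled array (Has2 and Vcan) and none lower, where 0.977% of 12072 genes were called higher and 1.75% lower. On the Mical3-labelled array, 1 of 7 was called higher (Cd44), where 1.38% of 12011 genes were called higher and 2.49% lower. Against untreated cells alone, Has2 and Vcan were called lower as well on the Mical3-labelled array, where 3.72% of genes were called lower. On the vector array 2 of 7 were called lower than in untreated cells and none higher, where 2.57% of 11849 genes were called lower and 3.26% higher. Between the hairpin arrays 2 of 7 were called, both higher on the Mical2-labelled array, where 3.81% of 11928 genes were called higher and 3.72% lower. By their brightest sets, Has2 and Vcan also lay below both controls on the Mical3-labelled array, and 0.398% of genes had a higher call on the Mical2-labelled array together with such a level. The shares are of genes that reached the floor in that comparison, as 6 of these 7 did, all but Has3. Because the genes were listed with such differences known, these counts carry no weight against those shares. Over the 6 genes at or above the floor, the median difference of the Mical2-labelled array was 0.69 from the vector and 0.68 from untreated cells, beside -0.04 and -0.03 over all 12166 genes. For the Mical3-labelled array it was 0.29 and 0.09, beside -0.03 and 0.01. The comparisons of the hairpin arrays share their 2 control arrays.

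Around these members, 82 further genes of 8 lists were measured. On the Mical2-labelled array, 4 of the 61 that reached the floor were called higher and none lower, where the shares over all genes were 0.977% and 1.75%. On the Mical3-labelled array, 1 of 60 was called higher and 3 lower, beside 1.38% and 2.49%. On the vector array, 2 of 59 were called higher than in untreated cells and 9 lower, beside 3.26% and 2.57%. Between the hairpin arrays, 11 of 62 were called higher on the Mical2-labelled array and 3 on the Mical3-labelled array, beside 3.81% and 3.72%.

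All 8 enzymes that make the sugar precursors reached the floor on some array. Gfpt2 was called higher on the Mical2-labelled array, where 0.977% of all genes were called higher. None was called on the Mical3-labelled array, where 1.38% of all genes were called higher and 2.49% lower. Gfpt2, an isoform of the enzyme that opens the hexosamine pathway, was at 7.07 on the Mical2-labelled array and below or near the floor elsewhere, at 5.48 on the untreated, 4.82 on the vector and 4.72 on the Mical3-labelled array. The levels on the vector and Mical3-labelled arrays, below the floor, have no order. Ugdh, which makes UDP-glucuronic acid, was not called. It was at 11.59 on the Mical2-labelled array, 10.90 on the Mical3-labelled array, 10.89 on the untreated and 10.44 on the vector array. Gnpnat1 was not called either. Its level was 10.48 on the Mical3-labelled array, 10.01 on the untreated, 9.94 on the Mical2-labelled array and 9.15 on the vector array. Uap1, which makes UDP-N-acetylglucosamine, was called lower on the vector than in untreated cells (8.85 and 9.98), and it was at 9.66 on the Mical2-labelled array and 8.65 on the Mical3-labelled array. Hk2, hexokinase, was lower on the Mical2-labelled array (8.92) than on the Mical3-labelled array (10.20). The list's median difference of the Mical2-labelled array was 0.51 from the vector and -0.20 from untreated cells.

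Breakdown genes split. Cemip, which encodes a hyaluronan-depolymerising protein, was at 9.74 on the Mical2-labelled array, 9.12 in untreated cells, 7.62 on the Mical3-labelled array and 5.34 on the vector array. It was called lower on the vector than in untreated cells and higher on the Mical2-labelled array than on the Mical3-labelled array. Another Cemip probe set just above the floor did not share the second call, with 5.29 and 5.55 on those arrays. Cemip2, encoding a related transmembrane protein, had another order, with 9.33 on the Mical3-labelled array, 8.85 on the untreated, 7.62 on the Mical2-labelled array and 7.55 on the vector array. Gusb, a lysosomal glucuronidase, was called lower on the Mical3-labelled array (8.25, with 9.54 on the vector and 9.76 in untreated cells), but its second probe set read 8.08 there and 7.84 on the vector array, so that call is not shared. Hexa, a lysosomal hexosaminidase subunit, was called higher on the vector array, at 12.96, with 11.85 in untreated cells. Of the 7 genes measured in this list, 6 reached the floor on some array. None was called on the Mical2-labelled array against both controls, where 0.977% of all genes were called higher and 1.75% lower.

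Among 8 receptors, 5 reached the floor on some array. Layn and Tlr2 were called higher on the Mical2-labelled array, where 0.977% of all genes were called higher. Cd44 was the 1 called on the Mical3-labelled array, where 1.38% of all genes were called higher. Layn, layilin, a lectin-like hyaluronan receptor, was at 7.93 on the Mical2-labelled array and at 6.05 to 6.49 on the other 3, but a second probe set read 5.85 there and 5.59 in untreated cells. Tlr2, an innate immune receptor reported to sense hyaluronan fragments, was at 7.0 against 5.26 on the vector, 5.92 in untreated cells and 5.62 on the Mical3-labelled array. Tlr4 was called higher on the vector (8.79) than in untreated cells (7.55). Hmmr, a proliferation-linked hyaluronan-binding protein, lay between 10.93 and 11.38, and Stab1, Stab2 and Lyve1 were below the floor on all arrays.

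Of 19 hyaluronan-binding matrix proteins, 8 reached the floor on some array. Vcan was the 1 called on the Mical2-labelled array, where 0.977% of all genes were called higher. None was called on the Mical3-labelled array, where 1.38% of all genes were called higher and 2.49% lower. The related proteoglycan genes Acan, Bcan and Ncan were below the floor on every array, as was the link protein gene Hapln1. Ptx3, a pentraxin that joins the TSG-6 and hyaluronan matrix, was called lower on the vector array (10.42) than in untreated cells (12.28) and stood at 11.83 on the Mical2-labelled array and 12.55 on the Mical3-labelled array.

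Among 7 versican-cleaving proteases, 3 were low on the vector array. Adamts1 was at 7.31 there and at 9.29, 9.45 and 9.72 in untreated cells and the Mical2- and Mical3-labelled arrays. Adamts5 was at 6.95 there and at 9.65, 9.77 and 10.19 on the others in the same order, and 2 further Adamts5 probe sets shared the drop. Adamts9 was at 5.48 there, 7.87 in untreated cells, 7.31 on the Mical2-labelled array and 6.80 on the Mical3-labelled array. All 3 were called lower on the vector than in untreated cells, of 4 genes that reached the floor, where 2.57% of all genes were called lower. None of the list was called on the Mical2-labelled array against both controls, where 0.977% of all genes were called higher and 1.75% lower. Adamts20 was called higher on the Mical3-labelled array, at 5.62 against 3.12 on the vector and 3.76 in untreated cells, where 1.38% of all genes were called higher. It reached the floor on that array alone, and only just. Vcan and its proteases therefore had different orders of arrays: the Mical3-labelled array was low for Vcan and highest for Adamts1 and Adamts5.

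Of 19 enzymes that build chondroitin sulfate chains, 18 reached the floor on some array. On the Mical3-labelled array 2 were called lower, where 2.49% of all genes were called lower. None was called on the Mical2-labelled array, where 0.977% of all genes were called higher and 1.75% lower. Chst11, a sulfotransferase acting on the 4 position, was at 5.04 on the Mical3-labelled array and at 7.64 to 7.77 on the other 3. Chst7, which sulfates another position, was at 6.45 there and at 7.45 to 7.75 elsewhere. Chst15 was also lowest on the Mical3-labelled array, at 5.04, against 6.18 on the Mical2-labelled array. Dse, an epimerase that turns chondroitin into dermatan sulfate, was called lower on the vector (8.02) than in untreated cells (9.23). The chain polymerase gene Chsy1 lay between 9.43 and 10.32. Csgalnact1 was not called, at 6.96 on the Mical2-labelled array, 6.98 on the Mical3-labelled array, 5.70 on the vector array and 6.03 in untreated cells. Fam20b, also uncalled, was at 9.63 on the Mical3-labelled array and 10.67 on the vector array.

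Of 9 genes for proteins that bind or cut CD44, 8 reached the floor on some array and none was called on either hairpin array. Over all genes, 0.977% were called higher and 1.75% lower on the Mical2-labelled array, and 1.38% and 2.49% on the Mical3-labelled array. Ezr, ezrin, which ties the CD44 tail to actin, was at 13.44 on the Mical3-labelled array, 12.62 on the Mical2-labelled array, 12.51 on the untreated and 11.67 on the vector array. Ank3 was called lower on the vector array (4.88) than in untreated cells (6.14). The sheddase genes Adam10, Adam17 and Mmp14 varied by less than 2-fold. Of 9 regulators of Cd44 splicing, 8 reached the floor on some array. Khdrbs3 was called higher on the Mical2-labelled array (6.87, with 3.78 to 3.91 elsewhere), where 0.977% of all genes were called higher. It reached the floor on that array alone. The epithelial splicing factor gene Esrp1 was below the floor, and Esrp2 lay between 6.59 and 6.99.

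Probe sets did not always share these list calls. For the vector against untreated cells, the calls of Uap1, Cemip, Cemip2, Tlr4, Ptx3 and Adamts9 rest on the brightest set, and further sets of these genes that reached the floor stayed under 2-fold.

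**Figure D4:**
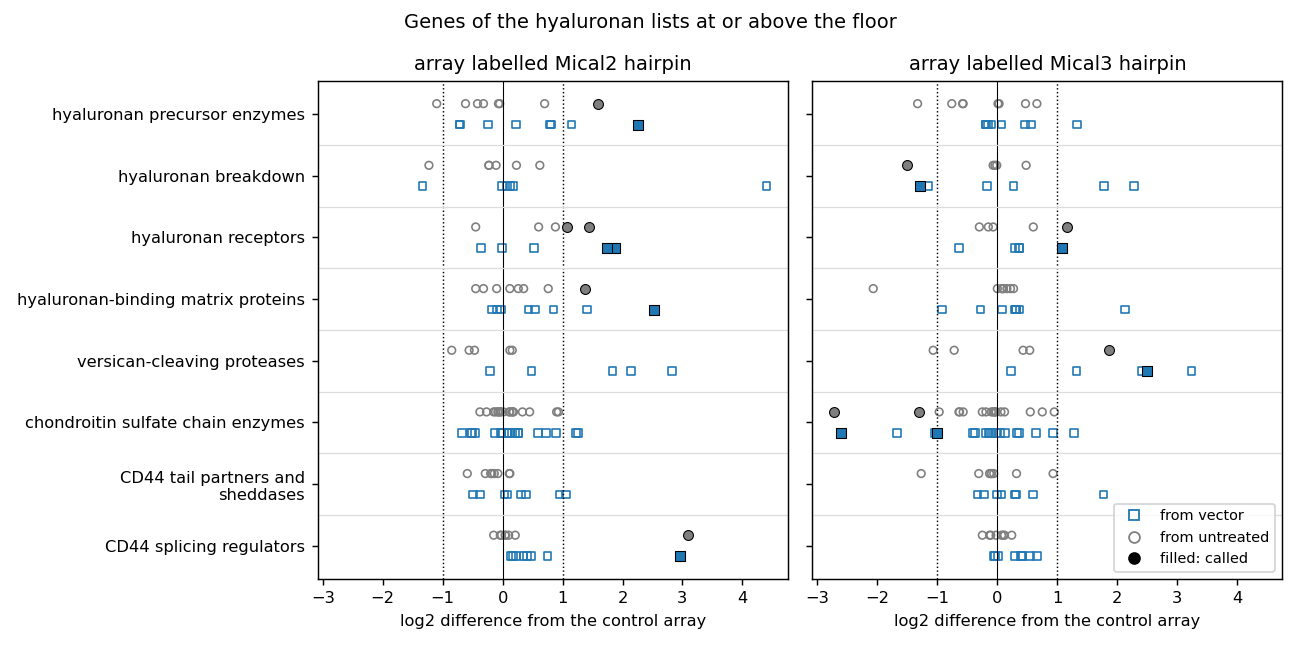
Log2 difference (x axis) of the Mical2-labelled array (left) or Mical3 (right) from the vector array (squares) and untreated cells (circles) for each gene of the 8 lists that reached the floor on some array; filled points passed 2-fold against both controls, and dotted lines mark 1 and -1. Among the proteases, Adamts1, Adamts5 and Adamts9 lie 1.32 to 3.24 above the vector array on both hairpin arrays and lie closer to untreated cells.

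Markers of fibroblasts and mural cells varied over the arrays, and only Pdgfrb took the order of Has2 and Vcan. Of 11 such markers, 8 reached the floor on the untreated, the vector and the Mical2-labelled array and 7 on the Mical3-labelled array. Their summed linear level, as log2, was 15.59 in untreated cells, 15.26 on the Mical2-labelled array, 13.52 on the Mical3-labelled array and 13.05 on the vector array. Single markers took different orders. In that order of arrays Pdgfra was at 10.40, 9.88, 7.07 and 6.16, with Col1a1 and Col3a1 also lowest on the vector array. Pdgfrb was at 10.28, 10.71, 3.55 and 8.13, which is the order of Has2 and Vcan. Col1a2 was at 14.49, 14.06, 6.19 and 11.64, and Dcn was at 12.36, 12.27, 12.79 and 10.52. Cspg4 and Des varied by less than 2-fold, and Lum, Thy1 and Rgs5 were below the floor throughout. Of 7 leukocyte markers, 4 reached the floor on every array (Laptm5, Csf1r, Cd3e and Cd68) and Ptprc, Cd52 and Itgam on none. Cd68 was at 5.93 in untreated cells, 6.16 on the Mical2-labelled array, 6.88 on the Mical3-labelled array and 8.0 on the vector array. Of 5 epithelial markers, 3 reached the floor in untreated cells and on both hairpin arrays, and 2 on the vector array. In the order of arrays used for Cd68, Krt8 was at 8.27, 8.32, 8.38 and 6.42. Krt18 was at 5.85, 6.63, 7.41 and 4.84, and Epcam lay between 6.60 and 7.10. The part of cell makeup in the Has2 and Vcan levels was not tested, and in bulk RNA fewer cells of a type cannot be told apart from less RNA per cell.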

How the data were processed

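Total RNA of SVEC4-10 cells was measured on 3′ expression arrays, with 1 array in each of 4 groups taken from the condition in the labels. The authors deposited log2 expression levels for 45101 probe sets. They were made with RMA, which corrects background, applies quantile normalization and summarises probes, per the submitters' processing notes. Its version is not given in the sources used here. Medians of the arrays lay between 5.40 and 5.44 and correlations between arrays across probe sets between 0.978 and 0.990. RMA compresses differences of dim probe sets, and the number of arrays limits the precision.

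Of the probe sets, 34945 have 1 gene symbol, 932 several and 9160 none, and 64 are controls. Symbols were updated through Entrez identifiers against a RefSeq table of GRCm38.p6 (34741 matched). A gene was represented by its probe set with the highest mean. The size rule was checked on simulated data, which does not show whether the calls made here would repeat. All members were named, with list genes that were called, some uncalled genes of a list, and the 3 nearest genes for Vcan, Has2 and Cd44. The uncalled genes named were not always those with the largest difference from the vector array. The members and lists were chosen with earlier results of these data known. Some uncalled list genes were named after their values were seen. Alternatives covered the control array, fold, floor, choice of probe set, a loess fit and 16 added on the linear scale. Scripts ran in Python 3.11.15 with pandas 2.3.3, numpy 2.4.6, matplotlib 3.10.9 and statsmodels 0.14.6.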

Additional observations from a re-analysis of the deposited data

Results flagged for a closer look

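Vcan and Has2 were singled out because the hairpin arrays lay on opposite sides of both control arrays. By its brightest probe set, the Vcan level was above both controls on the Mical2-labelled array and below both on the Mical3-labelled array, 3.44 apart on the log2 scale. Another Vcan set above the floor did not share this, with 5.83 on the Mical3-labelled array and 5.70 on the vector array. Has2 lay above and below both controls in the same way, 3.21 apart. With 1 array per group this difference between hairpins was not tested. The pattern of a called higher level on the Mical2-labelled array with a level below both controls on the Mical3-labelled array was met by 48 of 12072 genes, 0.398%. Because the genes were listed with such differences known, that share carries no weight.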

How the results depend on the processing

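For the Mical2-labelled array, the count of 2 called members became 0 at 3-fold, 3 at 1.5-fold with Tnfaip6 added as higher, 0 with the mean of all probe sets of a gene and 1 (Vcan) with the probe set of highest variance. For the Mical3-labelled array, the count of 1 became 3 with untreated cells as the only control, 3 with the mean of the 2 controls and 3 at 1.5-fold, with Vcan and Has2 added as lower each time, and 0 at 3-fold or with the mean of probe sets. For the vector against untreated cells, the count of 2 became 0 at 3-fold, 1 with the floor at the 75th percentile (Vcan) and 1 with the mean of probe sets (Has2). The count of 2 between the hairpin arrays held under every alternative run. The mean of probe sets takes in 5 Vcan sets below the floor, and it put the Vcan difference between hairpins at 1.09. Of 210 values of member differences under the alternatives, 191 moved by less than the probe-set scatter of their pair of arrays and 19 by more. That scatter is given above for pairs without the Mical3-labelled array. For the Mical3-labelled array it was 0.36 against the vector array, 0.28 against untreated cells and 0.28 against the Mical2-labelled array. No difference that had been called changed sign. Many of these values could not move. No member's brightest set has _x_ or _s_ in its ID, and Has1, Has3, Hyal2 and Tnfaip6 have 1 probe set each. The mean of probe sets moved 9 differences and the set of highest variance 9, all of Vcan, Has2 or Cd44. The uncalled Cd44 difference of the vector from untreated cells went from 0.08 to -0.23 with the mean of probe sets and to -0.66 with the set of highest variance. No paired analysis was possible because each group has 1 array.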
